A study of Mus musculus with 6 samples.

Results

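Lcn2, Hp, Ptx3, Lbp, Serpina3n, Orm1, Cp and Steap4, genes of the acute-phase response other than serum amyloid A and complement, were examined in primary chondrocytes of neonatal A2ARKO and WT mice. They were taken by gene symbol, and all 8 were found among the 47480 genes of the deposited table. The genes were chosen by their FPKM in A2ARKO against WT, so the differences between the genotypes are given as a description and carry no test. A2ARKO mice have a global knockout of the adenosine A2A receptor, which Adora2a encodes, on a C57BL/6 background, and WT mice are C57BL/6 animals with no knockout. Each library is RNA from the trypsinized chondrocytes of 1 whole litter, pooled, and there were 3 litters per genotype, so the spread between libraries is a spread between litters. No treatment is named in the labels, and the cartilage of origin, the time in culture and the deleted part of Adora2a were not stated there. The series was set up to look for drivers of osteoarthritis. Values are FPKM (fragments per kilobase of gene per mega fragments), a scale that divides by gene length, so that levels of different genes can be set side by side.

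The acute-phase response is the change in secreted proteins that follows infection or injury. It is best known from the liver, where interleukin 6 acts through STAT3, and interleukin 1 acts through NF-kappaB and transcription factors of the C/EBP family, to raise the proteins called positive acute-phase proteins. Many other cells, chondrocytes among them, make some of the same proteins when they meet inflammatory cytokines. Among the genes examined, Ptx3 encodes a long pentraxin that binds microbes and complement, and Lbp encodes the protein that hands bacterial lipopolysaccharide to CD14. Lcn2 encodes a lipocalin that takes iron-loaded siderophores away from bacteria, Hp encodes haptoglobin, which captures free haemoglobin, and Cp encodes ceruloplasmin, a copper-carrying ferroxidase. Steap4 encodes a metalloreductase that sits in membranes and is not a secreted protein, although it shares the setting of iron and copper handling. Serpina3n encodes a secreted inhibitor of serine proteases, and Orm1 encodes orosomucoid, a drug- and lipid-binding lipocalin.

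Judged by the spacing of low FPKM values, depth was 41.6 to 58.1 mega reads per library. Adora2a, the gene that was knocked out, read 9.36, 7.31 and 3.46 FPKM in WT, against 0.41, 0.54 and 0.66 FPKM in A2ARKO. The libraries differed in their levels of cell type markers. Summed over the 12 chondrocyte markers found in the table, such as Col2a1 and Acan, WT replicate 1 read 25883 FPKM, while WT replicates 2 and 3 read 1343 and 489 FPKM and the A2ARKO libraries 2257, 4540 and 6374 FPKM. Every chondrocyte marker was above 0 in all 6 libraries, yet in WT replicate 3 Matn1 and Matn3 were at 0.57 and 0.66 FPKM. The 12 macrophage markers summed to 181, 1927 and 129 FPKM in WT, against 45.4, 22.1 and 17.03 FPKM in A2ARKO, so WT replicate 2 stood apart in them. In such bulk samples fewer cells of a type and less RNA per cell cannot be told apart. Without WT replicate 1, every A2ARKO library had a higher chondrocyte marker sum than either remaining WT library.

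All 8 genes were higher in every A2ARKO library than in any WT library. Together they made up 0.112%, 0.215% and 0.169% of all FPKM in WT replicates 1, 2 and 3, and 1.59%, 1.78% and 2.58% in A2ARKO replicates 1, 2 and 3. Their log2 differences, mean A2ARKO less mean WT in log2(FPKM + 1), ran from 2.14 for Orm1 to 7.10 for Lcn2 with a median of 3.19, where the median of all 11595 genes tested was 0.0020. A total of 7 of the 8, Cp being the exception, met the call rule of a limma adjusted p below 0.05, which 3.31% of the genes tested met in the same direction, 1.77% in the other and 5.08% in either. Groups that do not overlap, with A2ARKO higher, were found for 18% of the genes tested. Since the genes were chosen with this contrast known, nothing is read from either count. The order of the levels differed between the genotypes. In WT it ran from Ptx3 (mean 209 FPKM) through Hp, Serpina3n, Steap4, Lcn2 and Lbp to Cp (10.4 FPKM) and Orm1 (0.47 FPKM), and the ranges of neighbours overlapped except between Hp and Serpina3n and between Cp and Orm1. In A2ARKO Lcn2 was first, above the range of Ptx3, and Orm1 was last, below the range of Lbp, while all other neighbours in the order Ptx3, Hp, Serpina3n, Steap4, Cp and Lbp overlapped.

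**Figure D1:**
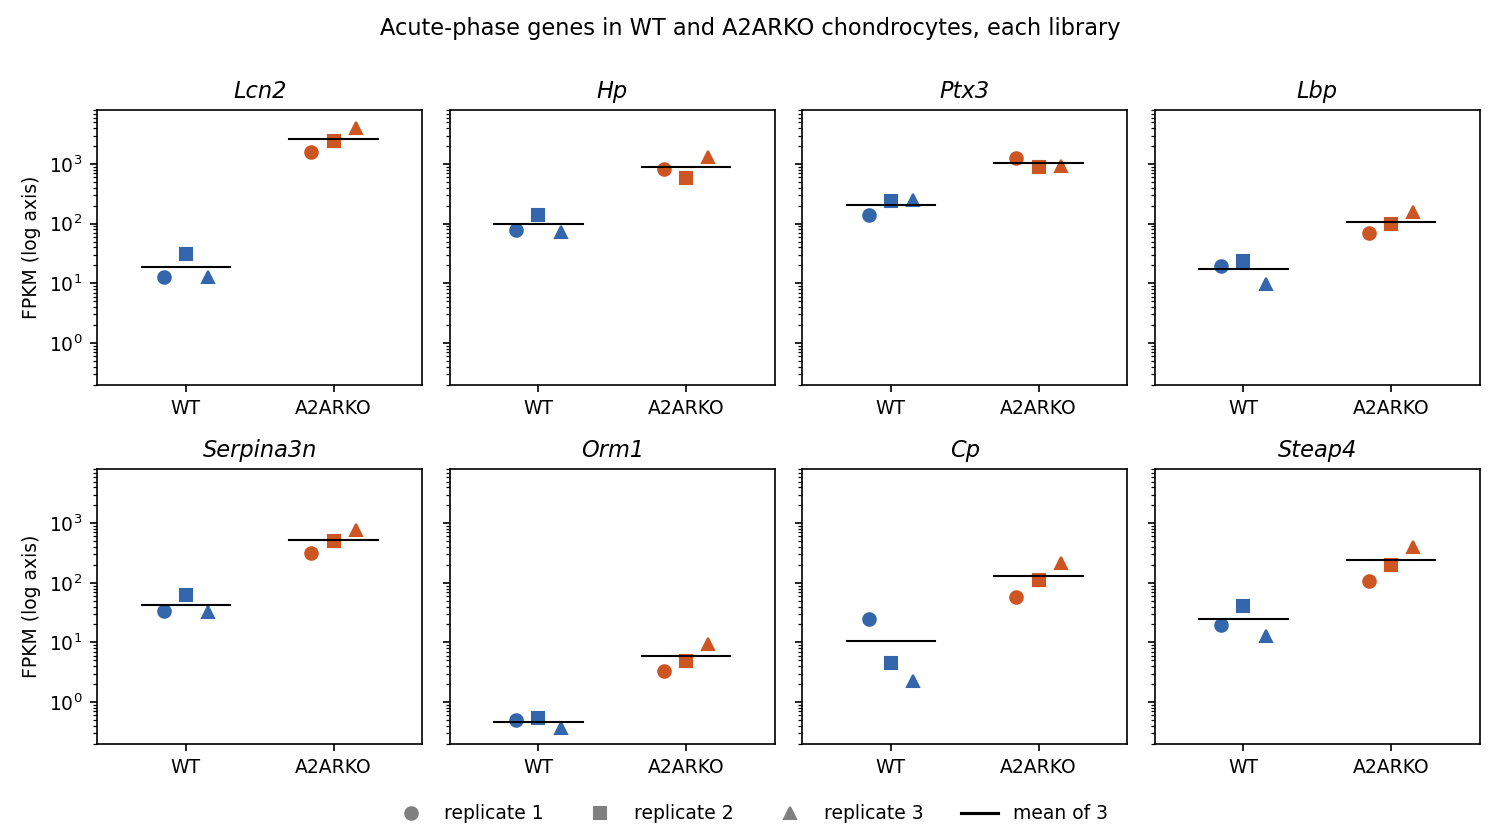
FPKM of each of the 8 genes (log axis) in the 3 WT and the 3 A2ARKO libraries, with a marker shape for each replicate and a line at the mean of 3. In every panel the lowest A2ARKO point lies above the highest WT point, and the gap is largest for Lcn2, from 31.5 to 1612 FPKM.

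The DNA before the RefSeq starts of these genes was searched for the letters of acute-phase regulatory motifs. RefSeq promoters on GRCm38.p6, the assembly called mm10, matched 5 of the 8 genes (Lcn2, Ptx3, Serpina3n, Cp and Steap4). Lcn2 is shown because its level differed most, Serpina3n and Steap4 because their profiles over the libraries were the closest pair of members, and Ptx3 because its order among the A2ARKO libraries was another. Each run is the 250 bases before the RefSeq start, 5′ to 3′ along the gene's strand. GENCODE gene models can begin elsewhere: the Lcn2 window lies inside the Lcn2 gene as GENCODE draws it, and the second Cp window lies mostly inside Cp. Capitals mark matches on either strand to the NF-kappaB motif (GGG and CC with any 5 bases between), TTNNGNAA or TGNNGNAA (C/EBP) or TTCNNNGAA (STAT), and neighbouring matches can overlap.
Lcn2 (chr2:32387740-32387989, minus strand): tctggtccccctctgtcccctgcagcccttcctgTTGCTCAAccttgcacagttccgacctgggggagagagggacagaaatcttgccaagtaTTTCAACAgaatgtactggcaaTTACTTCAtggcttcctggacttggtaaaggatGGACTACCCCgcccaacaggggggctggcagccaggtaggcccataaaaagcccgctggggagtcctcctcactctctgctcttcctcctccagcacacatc
Ptx3 (chr3:66219637-66219886, plus strand): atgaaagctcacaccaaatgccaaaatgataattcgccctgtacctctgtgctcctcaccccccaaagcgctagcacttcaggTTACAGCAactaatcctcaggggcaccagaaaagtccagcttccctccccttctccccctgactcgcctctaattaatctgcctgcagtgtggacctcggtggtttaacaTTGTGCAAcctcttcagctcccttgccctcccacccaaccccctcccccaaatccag
Serpina3n (chr12:104406458-104406707, plus strand): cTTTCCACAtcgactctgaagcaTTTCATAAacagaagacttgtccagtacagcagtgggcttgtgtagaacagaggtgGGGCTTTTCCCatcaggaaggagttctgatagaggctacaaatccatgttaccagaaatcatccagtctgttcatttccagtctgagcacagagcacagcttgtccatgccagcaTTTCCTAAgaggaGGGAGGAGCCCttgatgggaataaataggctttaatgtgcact
Steap4 (chr5:7960222-7960471, plus strand): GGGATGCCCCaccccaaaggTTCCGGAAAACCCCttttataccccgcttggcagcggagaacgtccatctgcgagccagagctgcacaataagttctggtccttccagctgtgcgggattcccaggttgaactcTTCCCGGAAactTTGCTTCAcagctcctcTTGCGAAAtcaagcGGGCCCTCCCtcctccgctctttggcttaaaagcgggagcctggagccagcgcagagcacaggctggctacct

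In the Lcn2 run a single NF-kappaB match lay at -102 to -93 from the start, downstream of 3 C/EBP matches at -216 to -209, -157 to -150 and -135 to -128. The Serpina3n run held 4 NF-kappaB matches, in pairs that overlap but for 1 base, and 3 C/EBP matches. Steap4 had 3 matches to NF-kappaB, 3 to C/EBP and the only STAT match of the 6 windows, at -116 to -108, and 1 of its C/EBP matches (-230 to -223) overlaps an NF-kappaB match (-226 to -217). The Ptx3 run held 2 C/EBP matches and none of the letters searched for NF-kappaB. Cp has 2 RefSeq starts, of which 1 had an NF-kappaB match and the other an AP-1 match (TGANTCA), and both had matches to C/EBP. The cyclic AMP response element TGACGTCA, the site of the CREB factors that cyclic AMP signalling activates, was in none of the 6 windows. The motifs are short and common: of 32851 promoter windows of that length, 45.8% held the NF-kappaB letters, 60.9% those of C/EBP, 7.02% STAT, 6.75% AP-1 and 1.55% the cyclic AMP element. A match is a stretch of letters and not a binding site.

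**Figure D2:**
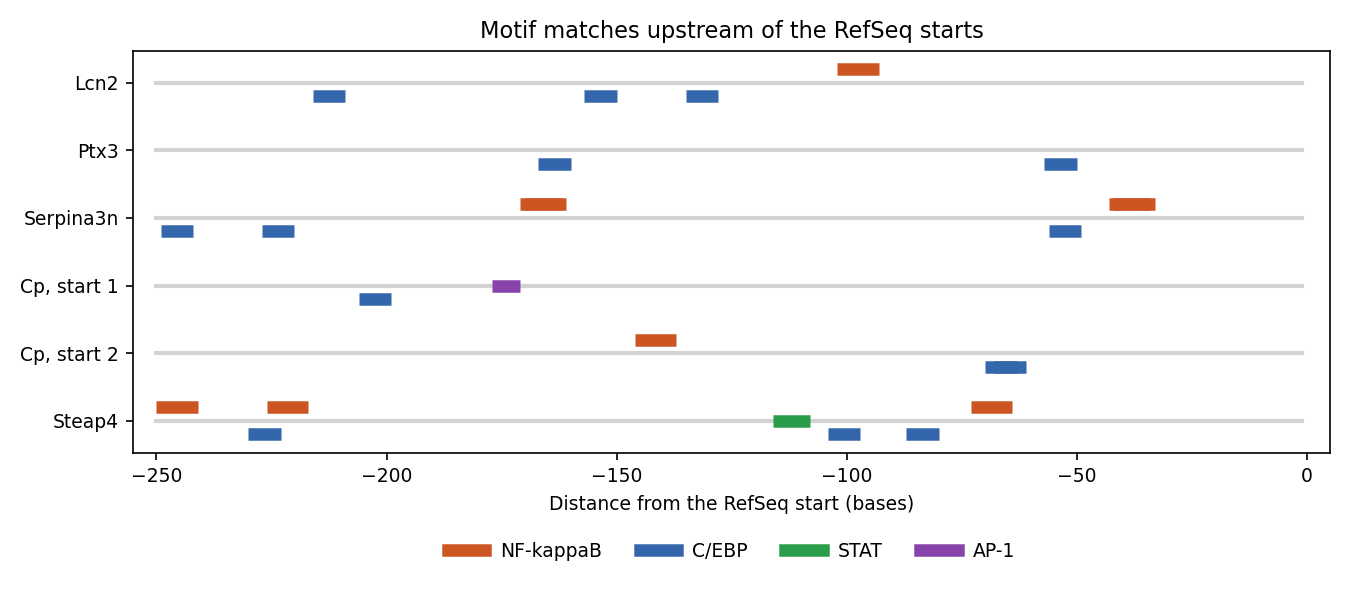
Matches to 4 motifs in the 250 bases before each RefSeq start of 5 genes, plotted by distance from the start in bases, with Cp at both of its starts. C/EBP matches are in all 6 windows, NF-kappaB matches in 4 and a STAT match in that of Steap4.

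Ptx3 (mm10 chr3:66219910-66225805, plus strand) was the most abundant of the 8 in WT cells. It read 140, 240.3 and 248 FPKM in WT replicates 1, 2 and 3 and 1286, 904 and 923 FPKM in A2ARKO replicates 1, 2 and 3. The means were 209 ± 60.5 and 1038 ± 215 FPKM (SD, n = 3), 4.96-fold apart, with a log2 difference of 2.33 ± 0.29 (standard error). Alone among the 8, Ptx3 was highest in A2ARKO replicate 1, and its A2ARKO libraries differed by no more than 1.42-fold. Lbp (chr2:158306493-158332852, plus strand) read 19.2, 23.8 and 9.59 FPKM in WT, against 69.4, 99.4 and 155 FPKM in A2ARKO. Its means of 17.5 ± 7.26 and 108 ± 43.6 FPKM lay 6.16-fold apart, and A2ARKO replicate 3 stood at 2.24 times A2ARKO replicate 1. Of the partners of LBP in sensing lipopolysaccharide, Cd14, Tlr4 and Ly96 were looked at after their values were seen, and none met the call rule with all libraries. Tlr4 had mean levels of 5.94 and 9.12 FPKM in WT and A2ARKO, and Ly96 of 6.26 and 6.96 FPKM. Cd14, the receptor gene, read 4.14, 23.04 and 4.39 FPKM in WT, against 7.76, 8.22 and 9.49 FPKM in A2ARKO, so WT replicate 2 alone was above the A2ARKO range. Without that library Cd14 was called higher in A2ARKO (means of 4.27 and 8.49 FPKM, log2 fold change 0.85, limma adjusted p = 0.0341).

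Lcn2 (chr2:32384633-32388252, minus strand) had the largest difference of the 8. It read 12.5, 31.5 and 12.8 FPKM in WT, against 1612, 2415 and 3999.7 FPKM in A2ARKO, an estimated 1367 to 4120 reads per WT library against 217896 to 553309 per A2ARKO library. The lowest A2ARKO library was 51.2 times the highest WT library. By mean FPKM Lcn2 ranked 2592 among all genes in WT and 5 in A2ARKO, and it held 3.28% to 5.77% of the summed level of the 8 genes in WT but 37.7% to 51.5% in A2ARKO. The means were 18.9 ± 10.9 and 2675 ± 1215 FPKM (SD, n = 3), a log2 difference of 7.10 ± 0.47 (standard error). Their ratio was 141, and 211 without WT replicate 2, the library with the most macrophage markers. Without A2ARKO replicate 3 the ratio was 106.

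Hp (chr8:109575128-109579172, minus strand) read 78.0, 142 and 73.1 FPKM in WT, against 814, 593 and 1310.2 FPKM in A2ARKO. Its means of 97.6 ± 38.2 and 906 ± 367 FPKM lay 9.28-fold apart, a log2 difference of 3.19 ± 0.38 (standard error). A2ARKO replicate 2 was the lowest of its group in Hp and in Ptx3, and replicate 1 in the other 6 genes. Steap4 (chr5:7960457-7982213, plus strand) read 19.9, 41.0 and 12.6 FPKM in WT, against 109, 201 and 403 FPKM in A2ARKO. The ratio of its means was 9.71, and 14.6 without WT replicate 2 and 6.33 without A2ARKO replicate 3. Its A2ARKO libraries spanned 3.69-fold, from replicate 1 to replicate 3, as did those of Cp.

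Cp (chr3:19957054-20009145, plus strand) varied most within WT. It read 24.3, 4.54 and 2.24 FPKM in WT, against 58.0, 113 and 214 FPKM in A2ARKO, so WT replicate 1 was 10.8 times WT replicate 3. The means were 10.4 ± 12.1 and 128 ± 79.0 FPKM (SD, n = 3), with a log2 difference of 3.88 ± 0.84 (standard error), the widest error of the 8. The ratio of means was 12.4 with all libraries and 37.9 without WT replicate 1, the library with the highest chondrocyte marker sum. Without A2ARKO replicate 3 the ratio was 8.27. Exons of Cp overlap those of Hps3, which read 1.29 to 2.14 FPKM in the 6 libraries.

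Serpina3n (chr12:104406729-104414329, plus strand) read 33.5, 62.3 and 31.9 FPKM in WT, against 319, 510 and 757 FPKM in A2ARKO. Its means of 42.6 ± 17.1 and 528 ± 220.04 FPKM (SD, n = 3) lay 12.4-fold apart, a log2 difference of 3.58 ± 0.39 (standard error). The ratio was 16.2 without WT replicate 2 and 9.73 without A2ARKO replicate 3. The gene belongs to a cluster of related inhibitors, and 6.90% of its stretches of 50 bases also occur in transcripts of other genes. Orm1 (chr4:63344560-63348163, plus strand) was by far the lowest of the 8, at 0.50, 0.54 and 0.37 FPKM in WT, against 3.33, 4.88 and 9.54 FPKM in A2ARKO. That corresponds to about 15.1 to 20.9 reads per WT library and 133 to 390 reads per A2ARKO library. It reached 1 FPKM in the 3 A2ARKO libraries only and therefore passed the filter on low values through that genotype, whereas the other 7 genes reached it in all 6 libraries. Of its 50-base stretches 20.4% occur in the neighbouring copy Orm2, so reads of the 2 may be exchanged. The pseudocount matters at this level: the log2 difference of Orm1 was 2.14 ± 0.32 with a pseudocount of 1 and 3.28 with one of 0.1.

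**Figure D3:**
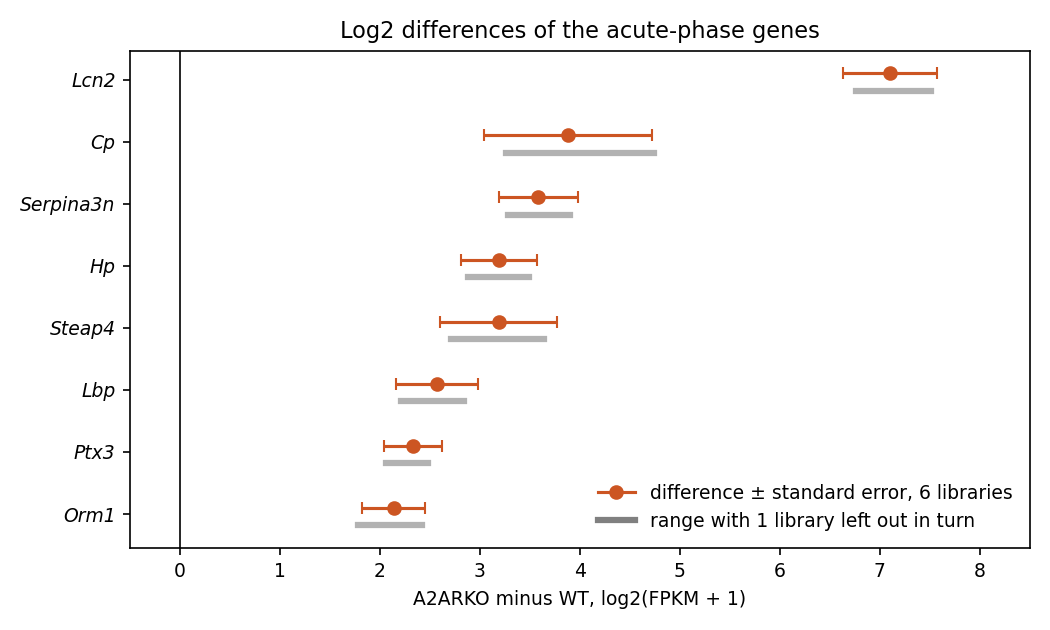
Log2 difference of each gene, mean A2ARKO less mean WT in log2(FPKM + 1) (points, with bars for the standard error), and the range of that difference when each of the 6 libraries is left out in turn (grey). Lcn2 stands apart at 7.10, the other 7 lie between 2.14 and 3.88, and the range is widest for Cp, from 3.26 to 4.74.

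Within the A2ARKO libraries 6 of the 8 genes shared an order. Lcn2, Lbp, Serpina3n, Orm1, Cp and Steap4 were each highest in A2ARKO replicate 3 and lowest in A2ARKO replicate 1, a pattern that 25.1% of the genes tested had. In these 6 genes replicate 3 was 2.24 to 3.69 times replicate 1, and a ratio of 2 or more occurred in 2.89% of the genes tested. The chondrocyte marker sum had the same order over the A2ARKO libraries, with replicate 3 highest and replicate 1 lowest. Its part in the order of the 6 genes was not tested. In WT the same marker sum was highest in replicate 1, and of the 8 genes Cp alone was highest there. Lcn2, Hp, Lbp, Serpina3n, Orm1 and Steap4 were highest in WT replicate 2, as were 30.7% of the genes tested, and Ptx3 was highest in WT replicate 3. WT replicate 2 is the library with the highest macrophage marker sum, and its part in these levels was not tested. Across genotypes the macrophage sum ran the other way, since the highest A2ARKO sum, 45.4 FPKM, lay below the lowest WT sum, 129 FPKM.

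**Figure D4:**
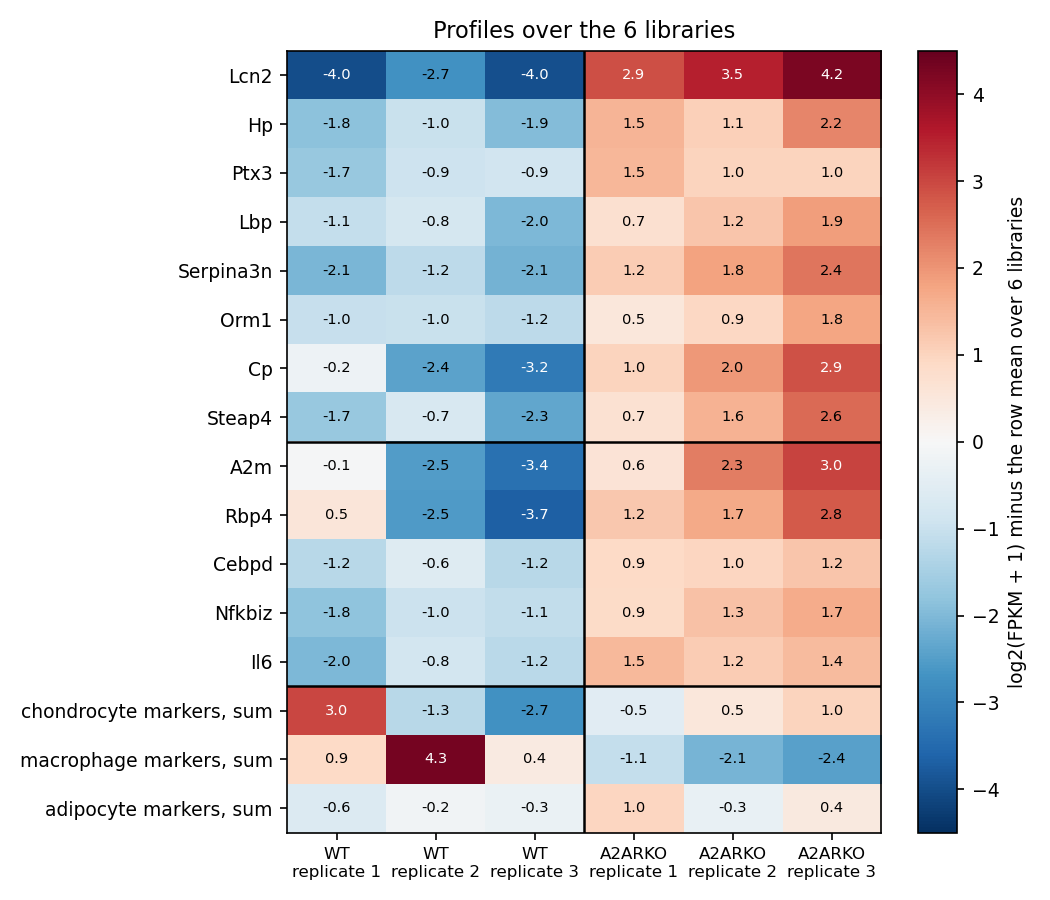
Log2(FPKM + 1) in each of the 6 libraries minus the row's mean over them, for the 8 genes (top), 5 other genes (middle) and the summed FPKM of 3 marker lists (bottom). Cp, A2m and Rbp4 are far higher in WT replicate 1 than in WT replicate 3, as is the chondrocyte marker sum, while Lcn2 and Serpina3n are not.

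Other cells that make these proteins were looked for by their markers. All 10 hepatocyte markers were below 1 FPKM in every library, with Ttr and Tat at 0 in all 6 and a highest sum of 0.65 FPKM. Of 13 neutrophil markers, 8 were below 1 FPKM throughout. Elane and Mpo, genes of granulocyte precursors, reached no more than 0.04 and 0.01 FPKM, and Ly6g, a surface marker of mature neutrophils, no more than 0.02 FPKM. In WT replicate 2 the markers S100a9, S100a8 and Ngp read 7.99, 4.19 and 1.71 FPKM, whereas S100a9 and Ngp were at or below 0.04 FPKM in the other libraries. S100a8 read 0.10 and 0.16 FPKM in WT replicates 1 and 3 and 1.17 to 1.91 FPKM in A2ARKO. Without WT replicate 2 both neutrophil markers tested, S100a8 and Camp, were called higher in A2ARKO by limma. Among those libraries both reached 1 FPKM in A2ARKO only. The neutrophil sum was 0.47, 17.4 and 1.34 FPKM in WT, against 10.6, 10.4 and 13.5 FPKM in A2ARKO. Most of the latter was the antimicrobial peptide gene Camp, which rose from 0.74 ± 0.51 to 9.38 ± 1.62 FPKM (SD, n = 3; log2 fold change 2.61, limma adjusted p = 0.0085), a call lost without A2ARKO replicate 2 (0.0511). In WT, Camp reached 1 FPKM in replicate 2 alone, at 1.11 FPKM. With all libraries it therefore met the filter through A2ARKO, and its p supports nothing beyond these values. The adipocyte markers, of interest because fat cells express Hp, Lcn2 and Steap4, summed to 99.05, 136 and 125 FPKM in WT, against 299, 122 and 207 FPKM in A2ARKO. Of 9 adipocyte markers tested, Pparg rose and 8 did not pass, while 8 of the 9 had a positive log2 fold change, 5 an unadjusted p below 0.05 and 4 no overlap between the groups. Without WT replicate 1, 2 of the 9 were called higher, Pparg among them. In every other fit without 1 library 0 of the 9 were called (limma adjusted p of 0.0533 to 0.113 for Pparg in those). Hp and the adipocyte sum were both lowest in replicate 2 among the A2ARKO libraries. The part of the adipocyte markers in the levels of the 8 genes was not tested. No chondrocyte marker of 12 and no macrophage marker of 9 tested was called by limma, with 0 and 7 at an unadjusted p below 0.05. The chondrocyte count rests on WT replicate 1. Without it all 12 chondrocyte markers had a positive log2 fold change (median 2.79), 11 did not overlap between the groups, and Acan, Matn1 and Col9a3 were called higher in A2ARKO (limma adjusted p of 0.0475, 0.0222 and 0.0367). Acan, for example, read 878, 11.6 and 3.55 FPKM in WT, against 41.03, 113.8 and 176.8 FPKM in A2ARKO. Among these 5 libraries the chondrocyte markers were thus higher in A2ARKO, as were the 8 genes, and the part of the one in the other was not tested. Endothelial markers summed to no more than 5.85 FPKM in any library. Of 2 tested, 0 were called with all libraries and 1 was called lower without WT replicate 1. Of 9 fibroblast and perichondrium markers tested, Aspn and Dpt fell and 7 did not pass. The median log2 fold change of the 9 was -0.79, and 6 had an unadjusted p below 0.05 (limma). A positive log2 fold change was found for 3 of the 9. Among these was Dcn, with means of 302 and 696 FPKM in WT and A2ARKO. Aspn lost the call without A2ARKO replicate 2, at a limma adjusted p of 0.0521. Dpt lost it in all fits without 1 library but that without WT replicate 3. Without WT replicate 1, 2 of the 9 were called lower, Aspn among them and Dpt not. The sum of these markers was 5814 to 7074 FPKM in WT, against 2897 to 4060 FPKM in A2ARKO. Col1a1 was the largest part of that sum in every library, with means of 4108 and 1623 FPKM in WT and A2ARKO.

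The other genes of the response were followed in 6 lists, from cytokines to binding partners, with the 8 genes left out. Of 144 genes listed 93 passed the filter, and among these 20 rose, 1 fell and 72 did not pass (limma, adjusted p below 0.05), which is 22.6% called where 5.08% of all genes tested were. The lists were written with results of these data known, so nothing is read from these shares. The median log2 fold change of the 93 genes was 0.42. Of the 20, Lif, Hpx and Orm2 reached 1 FPKM in A2ARKO libraries only and so entered the test through that genotype. Il6 and Slc39a8 reached 1 FPKM in WT replicate 2 alone among the WT libraries, so they too met the filter through A2ARKO. The calls of these genes support nothing beyond their values. The number called was 23, 19, 17, 6, 2 and 2 when WT replicates 1, 2 and 3 and A2ARKO replicates 1, 2 and 3 were left out in turn.

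Among 15 cytokine and receptor genes tested, 5 rose, Il11ra1 fell and 9 did not pass (median log2 fold change 0.42). Il6, the main cytokine inducer of the liver response, read 0.07, 1.45 and 0.87 FPKM in WT, against 10.9, 8.67 and 10.8 FPKM in A2ARKO. Its log2 fold change was 2.70 ± 0.30 (standard error; limma adjusted p = 0.0119). Il6 met the filter on low values through A2ARKO, so this p supports nothing beyond these values. The cytokine genes Lif and Clcf1, which signal through the same receptor subunit as interleukin 6, rose at 0.81 and 0.77 from means of 0.633 and 4.39 FPKM. The interleukin 1 receptor accessory gene Il1rap rose at 0.81, the interleukin 17 receptor gene Il17rc at 0.38, and the interleukin 11 receptor gene Il11ra1 fell at -0.78, from 19.8 ± 2.0036 to 11.2 ± 1.62 FPKM. Il6, Lif and Il1rap lost the call when A2ARKO replicate 1, 2 or 3 was left out (limma adjusted p of 0.0601, 0.0629 and 0.0698 for Il6, 0.0723, 0.0929 and 0.0967 for Lif and 0.0723, 0.114 and 0.0781 for Il1rap). Il11ra1 lost it without WT replicate 2 and without each A2ARKO library (0.0664, and 0.0525, 0.138 and 0.137). Clcf1 passed without WT replicate 3 only, with adjusted p up to 0.176 in the other fits, and Il17rc passed in none of them (0.0506 to 0.198).

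Of 27 genes for signal transduction and transcription factors, 6 rose, 0 fell and 21 did not pass (median 0.58). Of the 27, 22 had a positive log2 fold change and 18 an unadjusted p below 0.05 (limma). The groups did not overlap in 18 with A2ARKO higher and in 2 with A2ARKO lower, against 18% and 14.9% of all genes tested. Calls numbered 8, 9, 6, 4, 2 and 2 without WT replicates 1, 2 and 3 and A2ARKO replicates 1, 2 and 3 in turn. The 6 genes that rose include both C/EBP genes best known from the acute-phase response. Cebpd read 31.4, 50.1 and 31.6 FPKM in WT, against 141, 149 and 181 FPKM in A2ARKO, a log2 fold change of 2.06 ± 0.21 (standard error; limma adjusted p = 0.0107). Cebpb rose from 16.2 ± 5.39 to 43.8 ± 2.29 FPKM (SD, n = 3; limma adjusted p = 0.0301). Nfkbiz, encoding the NF-kappaB cofactor that the Lcn2 promoter is known to need, read 1.90, 4.16 and 3.70 FPKM in WT, against 17.5, 24.1 and 30.98 FPKM in A2ARKO (log2 fold change 2.57, limma adjusted p = 0.0119). Zc3h12a encodes a ribonuclease that cuts the mRNA of Il6 and other inflammatory genes. It rose from 4.24 ± 1.38 to 38.3 ± 3.59 FPKM (log2 fold change 2.94 ± 0.21, limma adjusted p = 0.0036). Traf3ip2, the adaptor of the interleukin 17 receptor, rose from 3.34 ± 0.12 to 10.4 ± 0.54 FPKM (limma adjusted p = 0.0028), and Nfkb1 rose at 0.44. Stat3, the transcription factor of the interleukin 6 response, named after its values were seen, had means of 30.9 and 32.7 FPKM and did not pass. Zc3h12a and Traf3ip2 passed whichever library was left out. Cebpd and Nfkbiz lost the call without A2ARKO replicate 2 (0.0628 and 0.0658) and replicate 3 (0.0547 for both). Cebpb lost it without A2ARKO replicates 1, 2 and 3 (0.106, 0.116 and 0.119), and Nfkb1 without these (0.117, 0.152 and 0.170) and without WT replicates 2 and 3 (0.0730 and 0.0503).

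Most genes listed as other positive acute-phase proteins were at low levels or at 0. Of 29 genes listed 18 stayed below the filter, among them Crp and Apcs, the short pentraxins, both listed at 0 in all 6 libraries. Of the 11 tested, 4 rose, of which 3 are described, and 7 did not pass. With all libraries, all 11 had a positive log2 fold change (median 1.73) and 8 an unadjusted p below 0.05 (limma). Without WT replicate 1, 8 of the 11 had a positive log2 fold change. Lrg1, a leucine-rich glycoprotein gene, rose from 2.85 ± 1.09 to 14.6 ± 3.88 FPKM (SD, n = 3). Hpx, for the haem-binding hemopexin, and Orm2 rose to 3.30 ± 1.35 and 2.61 ± 1.70 FPKM from means of 0.723 and 0.0433 FPKM, and both passed the filter through A2ARKO alone. Lrg1 lost the call when A2ARKO replicate 1, 2 or 3 was left out (limma adjusted p of 0.0860, 0.0628 and 0.0909). Hpx lost it in each of the 6 fits without 1 library (0.0546 to 0.134), and Orm2 in all of these fits but that without A2ARKO replicate 1, with adjusted p up to 0.171. Of the negative acute-phase proteins, which the liver lowers, 10 of 13 were below the filter. None of the 3 tested was called by limma (2 at an unadjusted p below 0.05). Their log2 fold changes were 1.39 for the transferrin gene Trf, 3.79 for the retinol carrier gene Rbp4 and -1.52 for the growth factor gene Igf1, at limma adjusted p of 0.0549, 0.101 and 0.281. Trf read 0.38, 0.32 and 0.21 FPKM in WT, against 1.33, 2.22 and 4.31 FPKM in A2ARKO. It thus entered the test through A2ARKO alone, and its p supports nothing beyond these values. Igf1 read 3.60, 28.7 and 29.4 FPKM in WT, against 6.95, 4.46 and 3.02 FPKM in A2ARKO. Without WT replicate 1, Rbp4 was called higher and Igf1 lower (log2 fold changes of 5.01 and -2.43, limma adjusted p of 0.0154 and 0.0178).

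Genes of iron and copper handling rose in part. Of 27 tested, 4 rose, 0 fell and 23 did not pass, and the median log2 fold change was 0.055. Without WT replicate 3, 1 of the 27 was called lower. The transporter gene Slc40a1, named after its values were seen, did not pass (log2 fold change -1.72, limma adjusted p = 0.0780). It read 4.65, 5.84 and 1.14 FPKM in WT, against 0.18, 0.33 and 0.46 FPKM in A2ARKO, and so entered the test through WT alone. Fth1, the ferritin heavy chain that stores iron, read 1389, 1889 and 1022 FPKM in WT, against 5228, 5626 and 6758 FPKM in A2ARKO (log2 fold change 2.07 ± 0.39, limma adjusted p = 0.0441). The transporter genes Slc39a8 and Slc39a14, which take up zinc and iron, rose from 0.877 ± 0.27 to 13.03 ± 7.61 FPKM and from 16.02 ± 4.85 to 47.8 ± 11.5 FPKM (SD, n = 3). Slc39a8 read 5.45, 12.97 and 20.7 FPKM in A2ARKO replicates 1, 2 and 3, the order seen in Steap4. In WT, Slc39a8 reached 1 FPKM in replicate 2 alone, at 1.17 FPKM. It thus met the filter through A2ARKO, and its call supports nothing beyond these values. Steap2, a relative of Steap4, rose from 6.34 ± 1.23 to 16.2 ± 0.89 FPKM. Fth1 was not called in any fit without 1 library (limma adjusted p of 0.0517 to 0.181). Steap2 lost it without A2ARKO replicates 1, 2 and 3 (0.0573, 0.0721 and 0.0679). Slc39a8 lost it without WT replicates 2 and 3 (0.0637 and 0.0505) and A2ARKO replicates 2 and 3 (0.124 and 0.0749), and Slc39a14 without WT replicate 2 (0.0663) and each A2ARKO library (0.0809, 0.154 and 0.144). Among 13 receptors and binding partners of the 8 proteins, Fgf2, a growth factor that PTX3 binds, rose at 1.17 and 12 did not pass (median 0.13). Without WT replicate 2 the median was 0.68 and 3 were called higher, with Cd14 and Tlr2 added. Fgf2 lost the call without A2ARKO replicates 1, 2 and 3 (0.0740, 0.129 and 0.123). The lipocalin-2 receptor gene Slc22a17, named after its values were seen, had means of 12.2 and 11.9 FPKM, while Cd163, the haptoglobin receptor of macrophages, reached no more than 0.04 FPKM.

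**Figure D5:**
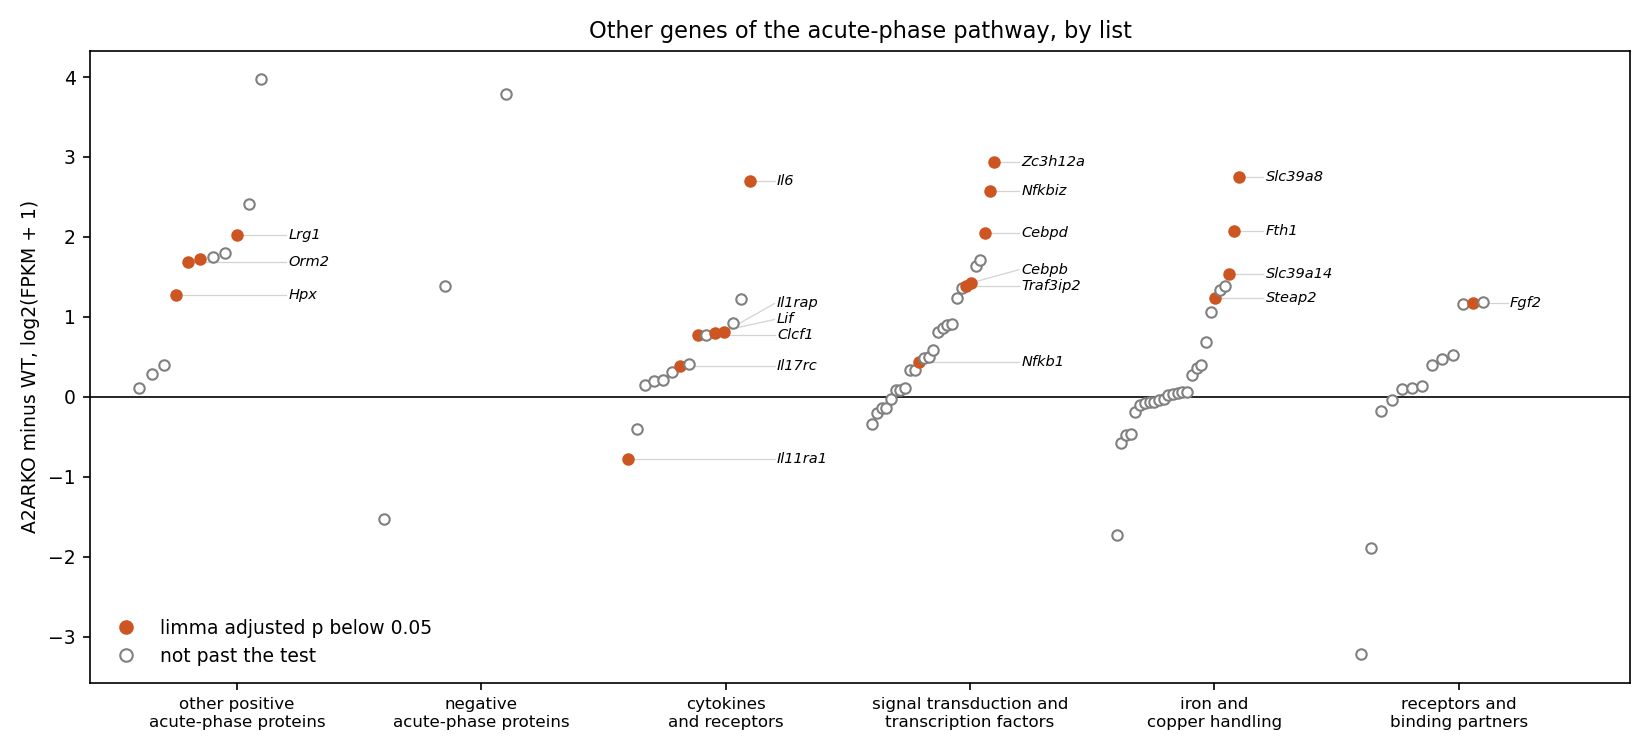
Log2 fold changes, mean A2ARKO less mean WT in log2(FPKM + 1), of the other genes of the acute-phase pathway in 6 lists, with genes past the limma threshold filled and, but for 1, named. Thin lines join names to filled points and can pass behind open ones. Filled points number 4, 0, 6, 6, 4 and 1 from left to right, and all but Il11ra1 lie above 0.

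Relatives of the 8 genes did not all share their pattern. In the Serpina3 cluster on chromosome 12, 6 of 10 relatives of Serpina3n passed the filter, and 4 rose. Serpina3m read 0.78, 0.42 and 0.07 FPKM in WT, against 9.38, 14.5 and 19.01 FPKM in A2ARKO (log2 fold change 3.40, limma adjusted p = 0.0063), and Serpina3f rose from 0.487 ± 0.47 to 10.5 ± 2.43 FPKM (SD, n = 3). Serpina3i and Serpina3c rose at 1.49 and 1.22, while Serpina3h and Serpina3g, at 1.31 and 2.38, did not pass. Serpina3m, Serpina3f and Serpina3i reached 1 FPKM in A2ARKO libraries only, so they could enter the test only by being higher there, and their calls support nothing beyond these values. Serpina3c lost the call when A2ARKO replicate 1, 2 or 3 was left out (limma adjusted p of 0.0601, 0.0658 and 0.0552). Reads shared within the cluster may be split between its members. Among lipocalins, Orm2 rose, Rbp4 and Apod did not pass at log2 fold changes of 3.79 and -1.57 with all libraries, and the other 14 of 17 relatives were below the filter. No pentraxin relative was called by limma: Nptx1 and Nptxr had log2 fold changes of -0.34 and -0.07, with 0 of the 2 at an unadjusted p below 0.05, although Nptx1 was called lower without WT replicate 1 (-0.78, limma adjusted p = 0.0493). Pltp, the phospholipid transfer protein related to LBP, had means of 44.0 and 21.1 FPKM and did not pass. In the STEAP family Steap2 rose, and Steap1 and Steap3, at 1.33 and -0.57, did not pass. Steap1 was called without WT replicate 1 (1.66, limma adjusted p = 0.0075).

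The genes whose profiles over the 6 libraries lay closest were found by the root mean square difference between log2(FPKM + 1) profiles, each centred on its own mean. Genes with provisional names, such as those with Gm, LOC or Rik, were left out, so nearest here means nearest among the other genes tested. Serpina3n and Steap4 were each other's closest gene, at 0.34. Nearest to Lcn2 were Mmp3 and Saa2, at 0.69 and 0.71, and to Hp the genes Ccl20 and Serpina3f, at 0.32 and 0.35. Stc1 was nearest to Ptx3, at 0.15, and Clu was nearest both to Lbp, at 0.28, and to Orm1, at 0.18. The second places were C4b for Lbp, Ampd3 for Orm1, Angptl4 for Serpina3n and Lbp for Steap4. Cp was closest to A2m and Rbp4, at 0.25 and 0.40. A2m, which encodes the protease inhibitor alpha-2-macroglobulin, read 11.6, 1.28 and 0.28 FPKM in WT, against 19.1, 63.9 and 107.7 FPKM in A2ARKO, and Rbp4 read 55.4, 5.71 and 2.04 and then 89.5, 127 and 262 FPKM. In both, as in Cp, WT replicate 1 was the highest WT library and WT replicate 3 the lowest. With 6 libraries in 2 groups, any gene with a like difference between the genotypes has a like profile.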

How the data were processed

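RNA was sequenced on an Illumina HiSeq 4000, per the labels' protocols. The authors deposited 1 table of FPKM, rounded to 2 decimals, and HTSeq and mm10 are named in the submitters' processing notes. Aligner, annotation, gene lengths and strandedness: not given in the sources used here. Reads of overlapping or near-identical genes therefore cannot be told apart. FPKM carry no counts. Depth was estimated from genes of at most 150 nt (GENCODE M21), whose values up to 10 reads were whole within 0.1 read in 99.05% or more of cases, and reads per gene are approximate. Genes at 1 FPKM or more in at least 3 of 6 libraries (11595) were fitted with limma 3.58.1 in R 4.3.3 (eBayes with trend, log2(FPKM + 1), two-sided, Benjamini-Hochberg over all of them), which was tested on simulated data. Fits without 1 library kept these genes. Genes were named by rule: the 8 members, called genes of each list (up to 6) or the 2 of smallest p, family members and the 2 nearest profiles. Members and lists were chosen with earlier results of these data known. Shared stretches were sought in GENCODE transcripts, sense strand. Results for 2 genes that the rule names are not reported here.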

Additional observations from a re-analysis of the deposited data

How the results depend on the processing

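The log2 differences of the 8 genes kept their sign under all 16 alternatives (15 for Orm1, which a filter of 1 FPKM in all 6 libraries removes), and only Orm1 moved by more than its replicate spread, to 3.28 with a pseudocount of 0.1 and 0.96 with one of 5. The 589 genes called over the transcriptome (384 higher, 205 lower) became 213 without the filter on low values, 348 with libraries scaled to equal sums (178 higher), 561 after quantile normalization (302 higher), 1363 with array weights and 50 to 900 with a library left out. The 21 other pathway genes called became 6 with no filter, 32 with array weights and 2 to 23 with a library left out. With a replicate block limma called 2 genes, and 0 of the pathway genes (44 at an unadjusted p below 0.05). The labels do not say whether shared numbers pair the libraries. Deviations from the group means correlated at -0.52, -0.33 and -0.39 between same-numbered libraries, over 11595 genes. These values cannot decide it, since deviations of 3 libraries from their mean are tied together and 1 library that stands apart can set the signs. Of 392 alternative values of named pathway and family genes, 257 kept the call, 135 lost it and 0 reversed. With 3 litters per genotype the precision is set by the litters, and for Orm1 also by its 15.1 to 20.9 reads per WT library.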
